A study of Mus musculus with 24 samples.

Results

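The 32 genes described here encode the enzymes that build cholesterol and fatty acids, with the proteins that regulate and carry sterols. They were chosen by gene symbol, with earlier results of these data known. Those results included lower values in KO at 4 h and higher values at 72 h. The counts at these times are therefore no independent support for that pattern. The list holds 6 genes of the mevalonate pathway, 11 of the squalene and sterol steps, 6 sterol regulators and carriers and 9 genes of fatty acid synthesis. A value was available for 30 of the 32, out of 22180 genes tested in the whole series. The only probe sets of Idi1, the isopentenyl diphosphate isomerase gene, and Scd2, a stearoyl-CoA desaturase gene, list a second gene as well, so no value is named for either.

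RNA was measured on Affymetrix arrays in naive CD4 T cells of mice, the helper T cells that have not yet met antigen. The cells came from TRIM28KO mice (KO) or wild-type littermates (WT) and were unstimulated (0 h) or stimulated for 4, 24 or 72 h with anti-CD3 bound to the plate and anti-CD28 in solution, antibodies that engage the T cell receptor and its costimulatory receptor. Each of the 8 groups of genotype and time held 3 arrays, numbered 1 to 3 in the labels. TRIM28 is a corepressor that zinc finger proteins bring to DNA, where it recruits silencing enzymes. The strain, the age and sex of the mice, the cell type in which Trim28 was deleted, any Cre driver and the sort gate are not stated in the labels. No label ties an array to its own animal. Each p-value rests only on how far arrays spread within their groups, pooled over the 8 groups. For each gene this spread is weighed with that of other genes of similar level. How much of that spread is technical is not known.

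Cells make cholesterol from acetyl-CoA through mevalonate, farnesyl diphosphate, squalene and lanosterol. When membranes of the endoplasmic reticulum hold little sterol, the escort protein SCAP carries SREBP transcription factors (from Srebf1 and Srebf2) to the Golgi, where they are cut and released to switch on the synthesis genes. When sterol is plentiful, the INSIG proteins hold SCAP and SREBP back. T cells that start to grow and divide after receptor stimulation are known to turn this program on, since new membrane needs both sterols and fatty acids.

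SREBP and its partner factors act at promoters, so the start regions of members that moved together, and of one that did not, are shown. RefSeq promoter windows (assembly GRCm38.p6, 250 bases before to 50 after the start) were matched to 25 of the members by symbol, and Fdps, Fdft1, Sqle, Stard4, Scd1, Scd2 and Fads1 had no entry. Below are the windows of Insig1 (chr5:28071162-28071461, plus strand), Cyp51 (chr5:4104648-4104947, minus strand) and Hmgcs1 (chr13:119690101-119690400, plus strand), which were lower in KO at 4 h. They are followed by those of Mvd (chr8:122443373-122443672, minus strand), which was also lower in KO at 4 h but higher before stimulation, and Scap (chr9:110333038-110333337, plus strand), which was higher in KO from 24 h. All are written 5′ to 3′ in the direction of the gene. Capitals mark TCACNCCAC (a sterol regulatory element form), CACGTG (an E-box) and CCAAT (the CCAAT box) on either strand, so a CCAAT box on the opposite strand reads as ATTGG.
Insig1: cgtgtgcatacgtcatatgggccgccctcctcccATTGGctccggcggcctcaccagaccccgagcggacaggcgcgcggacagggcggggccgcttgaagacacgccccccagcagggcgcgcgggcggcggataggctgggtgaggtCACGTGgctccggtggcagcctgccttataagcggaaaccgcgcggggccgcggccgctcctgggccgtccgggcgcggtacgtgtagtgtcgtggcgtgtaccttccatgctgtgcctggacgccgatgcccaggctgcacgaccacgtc
Cyp51: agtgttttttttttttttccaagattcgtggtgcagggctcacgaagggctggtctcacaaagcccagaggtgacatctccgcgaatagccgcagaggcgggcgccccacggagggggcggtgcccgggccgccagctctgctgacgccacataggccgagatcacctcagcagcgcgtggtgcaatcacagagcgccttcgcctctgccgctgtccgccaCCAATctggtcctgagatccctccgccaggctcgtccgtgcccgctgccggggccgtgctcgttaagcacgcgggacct
Hmgcs1: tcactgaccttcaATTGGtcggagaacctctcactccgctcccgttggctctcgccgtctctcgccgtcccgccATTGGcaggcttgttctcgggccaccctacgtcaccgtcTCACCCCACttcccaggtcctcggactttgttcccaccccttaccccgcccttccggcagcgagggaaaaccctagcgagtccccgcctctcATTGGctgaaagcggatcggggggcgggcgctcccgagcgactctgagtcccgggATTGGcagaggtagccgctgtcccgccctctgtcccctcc
Mvd: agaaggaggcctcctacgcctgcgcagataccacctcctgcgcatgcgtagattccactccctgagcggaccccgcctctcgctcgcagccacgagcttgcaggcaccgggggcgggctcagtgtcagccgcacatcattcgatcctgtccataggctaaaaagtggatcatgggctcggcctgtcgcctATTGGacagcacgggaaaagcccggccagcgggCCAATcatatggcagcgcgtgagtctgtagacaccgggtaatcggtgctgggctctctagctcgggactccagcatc
Scap: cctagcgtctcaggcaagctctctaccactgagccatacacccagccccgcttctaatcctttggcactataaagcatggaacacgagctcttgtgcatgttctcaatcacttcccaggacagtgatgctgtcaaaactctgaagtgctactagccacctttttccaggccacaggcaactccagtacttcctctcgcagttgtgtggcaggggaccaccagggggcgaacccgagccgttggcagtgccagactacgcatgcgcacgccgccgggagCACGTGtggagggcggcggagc

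The CCAAT box stood in 21 of the 25 members with an entry. Counted over windows, since some genes have several, it was in 22 of 33 member windows (66.7%) against 12289 of all 32851 (37.4%). All 9 members with an entry that were lower in KO than in WT at 4 h held it, as did most of the other members with an entry. These counts are per gene, so the share of all windows is no measure for them. Scap did not hold the CCAAT box in this window, and Hmgcs1 held it at 4 places. The E-box was in 6 of the 33 member windows (18.2%) against 7.15% of all windows, in Insig1, Hsd17b7, Sc5d, Dhcr7 and Scap. TCACNCCAC was in 1 member window, that of Hmgcs1, and in 1.24% of all windows. The motifs can share letters at their ends, and no marked places overlap in the windows shown. A match describes these letters only.

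Levels below are log2 intensities as deposited, for which the median gene lay at 3.72, and a difference of 1 is a doubling. Differences and tests come from limma over all 24 arrays, with p-values adjusted by Benjamini-Hochberg over the 22180 genes. A gene is said to have risen, fallen or differed where adjusted p was below 0.05. The deleted gene, Trim28, averaged between 7.78 and 9.19 in the WT groups and between 5.16 and 5.61 in the KO groups. Where its probes lie relative to the deletion is not known here. Xist, the transcript of the inactive X chromosome, lay between 9.61 and 10.29 on all arrays numbered 1 and 2 and between 3.03 and 4.79 on those numbered 3, so each group mixes both levels in the same proportion. T cell markers were high throughout (summed level of 7 of 8 listed genes between 13.11 and 13.72), and group means of Cd8a, Csf1r and Ncr1, which define CD8 T cells, macrophages and natural killer cells, lay between 3.07 and 3.76. Other markers of these lists were higher, with group means of 5.78 to 6.45 for Cd8b1, 3.99 to 6.78 for Klrd1 and 5.86 to 6.52 for Cd68. The summed level of the B cell markers (10 of 11 measured) was 7.58 to 8.65 in WT and 8.37 to 9.28 in KO at 0 h. At 4 h it was 7.34 to 8.33 and 8.07 to 8.80, at 24 h 7.27 to 7.73 and 7.95 to 8.91, and at 72 h 7.22 to 7.39 and 7.74 to 8.51. Of these 10 markers 2 were called higher in KO at 0 h, 0 at 4 h, 2 at 24 h and 1 at 72 h. Their differences were above 0 in 10, 10, 10 and 9 of the 10, with medians of 0.78, 0.59, 0.58 and 0.59. For all genes the medians were 0.00, 0.00, -0.05 and 0.01. Shares of all genes called at these times, for this list and those that follow, were 1.76%, 3.3%, 3.9% and 2.56% higher, and 0.577%, 0.834%, 7.38% and 3.78% lower. Of the 8 myeloid markers 3 were higher in KO at 0 h and 3 at 4 h (S100a8, S100a9 and Lyz2), and 1 was lower at 72 h (Cd68). Their summed level was 7.33 to 7.56 in WT and 7.45 to 8.35 in KO at 0 h, 7.16 to 7.41 and 7.32 to 7.91 at 4 h, 6.96 to 7.09 and 7.07 to 7.27 at 24 h, and 7.12 to 7.23 and 6.72 to 6.92 at 72 h. Of the 7 T cell markers Cd5 was lower in KO at 0 h (-0.35), Thy1 was lower at 4 h (-0.50) and 24 h (-0.56), while 3 were higher both at 24 h and 72 h (Cd3d, Cd3e and Cd3g). Cd8b1 was lower at both times (-0.41 and -0.65). Klrd1, a natural killer marker, was lower at 0 h (-0.90). The part of these other cells in the results below was not tested. In bulk RNA, fewer cells of a type and less RNA per cell cannot be told apart.

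Stimulation raised most of these genes in both genotypes. In WT, 17 of 30 rose and 7 fell by 4 h (of all genes 16.8% rose and 17.8% fell), 24 rose and 1 fell by 24 h (23.2% and 16.5%), and 27 rose and 1 fell by 72 h (22.2% and 18.3%). The members' median change was 0.54, 1.12 and 1.50 at these times, with the median of all genes between -0.01 and 0.04. In KO, 17 rose and 7 fell by 4 h (15.1% and 16% of all genes), 22 rose and 2 fell by 24 h (17.6% and 16.5%), and 29 rose and 1 fell by 72 h (21.1% and 18.6%), with medians of 0.32, 0.95 and 1.94. The comparisons within a genotype share their 0 h arrays. Without WT array 3 at 0 h, or without WT array 1 at 4 h, 4 members fell in WT at 4 h, and Mvk, Nsdhl and Ebp were no longer called. Leaving out KO array 1 or 3 of the 0 h group, or KO array 2 of the 24 h group, left 1 member that fell in KO at 24 h.

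**Figure D1:**
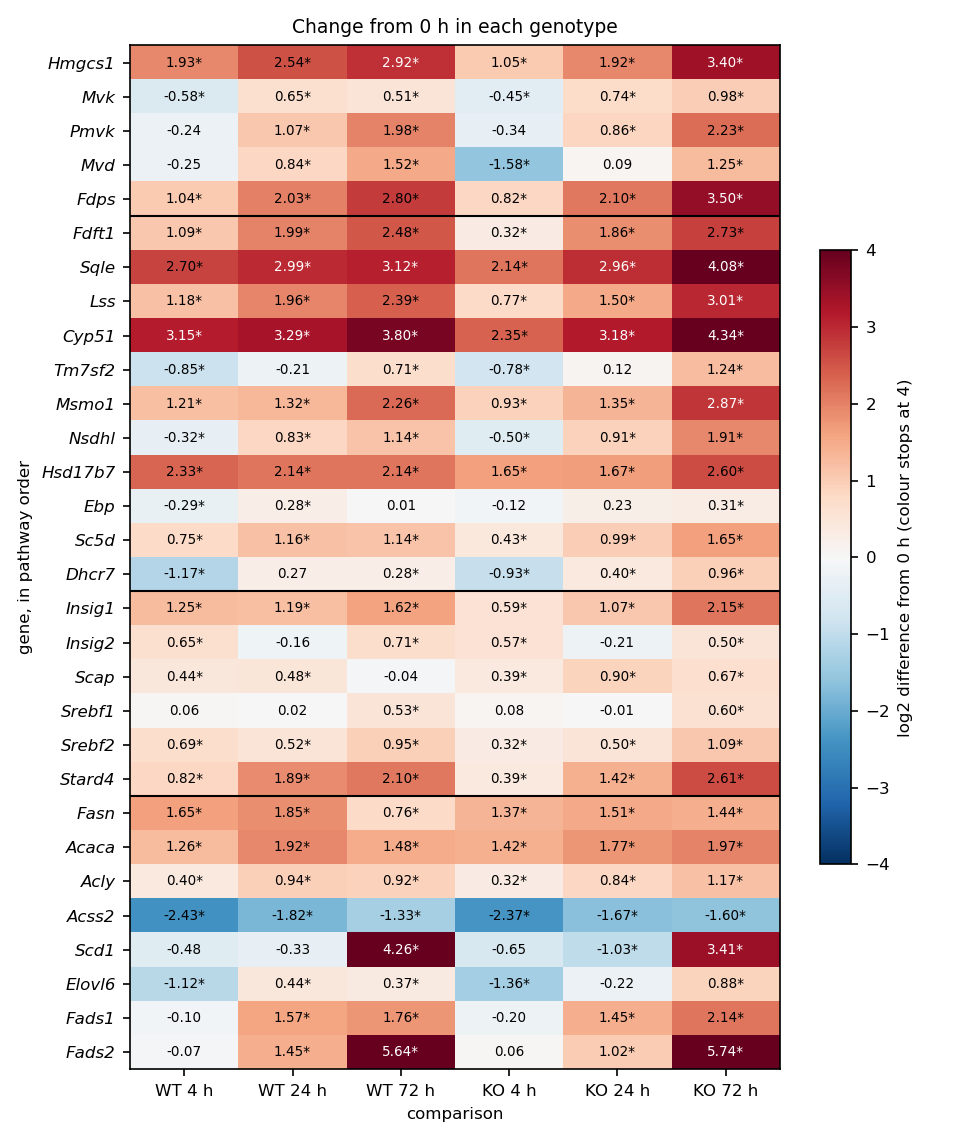
Change of each of the 30 measured genes from 0 h to 4, 24 and 72 h (columns, WT then KO), as log2 differences printed in the cells. Rows follow the pathway with lines between roles, red is higher and blue lower, colours stop at 4, and stars mark adjusted p below 0.05 (limma). By 72 h all genes but Acss2 are starred as higher in KO.

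The genes did not share 1 course. Cyp51, the lanosterol demethylase, and Sqle, the squalene epoxidase, had made most of their rise by 4 h in WT: Cyp51 stood 3.15 above 0 h at 4 h and 3.80 at 72 h, and Sqle 2.70 and 3.12. Fads2, which puts double bonds into polyunsaturated fatty acids, was at -0.07 at 4 h and 1.45 at 24 h and reached 5.64 at 72 h. Its 0 h arrays (3.22 to 3.42) lay below the median gene and the files hold no detection calls, so the size of that rise is uncertain. Scd1, which makes monounsaturated fatty acids, was at -0.48, -0.33 and then 4.26. Acss2, which makes acetyl-CoA from acetate, went the other way, falling at 4 h in WT (-2.43) and in KO (-2.37) and staying below 0 h at 72 h (-1.33 and -1.60). Dhcr7 (-1.17), Elovl6 (-1.12) and Tm7sf2 (-0.85), enzymes of late sterol reduction and fatty acid elongation, also fell at 4 h in WT. Tm7sf2 had risen above 0 h by 72 h (0.71).

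Before stimulation the genotypes differed in 1 of the 30 genes. Mvd, the mevalonate diphosphate decarboxylase, was higher in KO, and no member was lower (of all genes 1.76% were higher and 0.577% lower). The members' median difference was -0.07 against 0.00 for all genes. On the WT arrays Mvd read 5.33, 5.02 and 5.49, and on the KO arrays 6.25, 6.12 and 6.08. Every KO array lay above every WT array, by 0.87 on average (SE 0.12, adjusted p = 4.4e-05, limma), which is 1.82-fold. Of the 30 differences 19 were below 0 (10827 of 22180 over all genes), the lowest that of Sqle (-0.46, adjusted p = 0.0558).

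Mvd lies beside a gene that differed far more. In the RefSeq order of genes, used here for order alone, Mvd sits between Cyba and Snai3, with Rnf166 next. These neighbours were named after their values were seen. Snai3, which encodes a Snail family transcription factor, read 4.24, 4.33 and 4.55 in WT and 8.63, 8.74 and 8.70 in KO at 0 h, a difference of 4.31 (SE 0.18, adjusted p = 5.88e-15, limma). The groups were wide apart. Rnf166, a ubiquitin ligase gene, was higher in KO by 0.82 (adjusted p = 0.000182), and Cyba, a subunit of the NADPH oxidase, by 0.14 (adjusted p = 0.529). The nearest measured neighbour on each side of the 30 genes gave 60, with Fads1 and Fads2 counted as neighbours of each other. Of these 60, Snai3 was the 1 that was higher in KO at 0 h (1.67%, against 1.76% of all genes). Rnf166 lies beyond Snai3 and is not in this count.

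**Figure D2:**
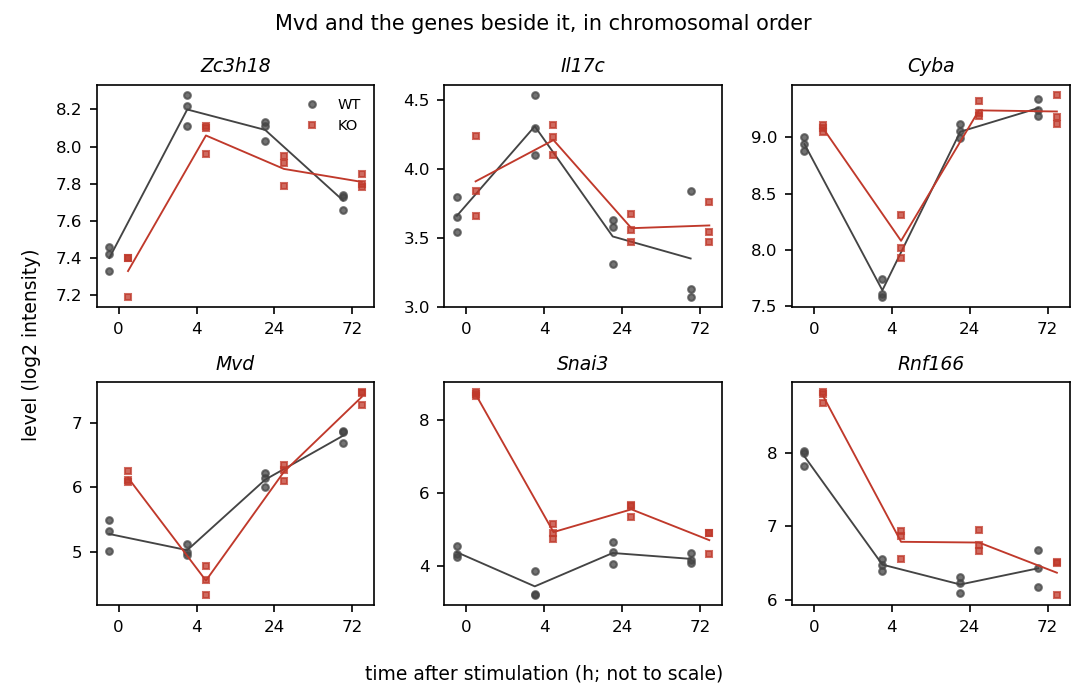
Levels (log2 intensity) of Mvd and of the genes beside it, 1 panel a gene, against time after stimulation (not to scale); points are arrays, lines join the means of 3, WT grey circles and KO red squares. At 0 h the 3 KO points of Cyba, Mvd, Snai3 and Rnf166 lie above the WT points, and those of Mvd fall below them at 4 h.

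The neighbours then took different courses. At 4 h Cyba read 7.61, 7.58 and 7.74 in WT and 8.31, 7.93 and 8.02 in KO. The difference in Snai3 was 1.48 at 4 h, 1.18 at 24 h and 0.51 at 72 h (adjusted p = 0.108 at the last). Snai3 averaged 8.69 at 0 h and 4.93 at 4 h in KO, and 4.38 and 3.45 in WT. In KO Mvd fell by 1.58 from 0 to 4 h, while in WT it was at -0.25 (adjusted p = 0.113, limma). The difference in Snai3 stayed above 0 at 4 h, where that of Mvd did not. At 4 h Mvd read 5.0, 4.96 and 5.12 in WT and 4.79, 4.57 and 4.34 in KO, now lower on every KO array (-0.46, adjusted p = 0.0252). Its genotype difference changed by -1.33 between 0 and 4 h (SE 0.17, adjusted p = 7.24e-05, limma interaction term). At 72 h it was higher in KO again, by 0.60 (adjusted p = 0.0016).

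At 4 h 13 of the 30 genes were lower in KO and 0 higher, where of all genes 0.834% were lower and 3.3% higher. The members' median difference was -0.26, with 0.00 for all genes. In 14 members every KO array lay below every WT array (6.9% of all genes), and in 2 above (9.31%). By role, 3 of 5 mevalonate genes, 6 of 11 squalene and sterol genes, 3 of 6 regulators and carriers and 1 of 8 fatty acid genes were lower. KO array 2 had the lowest marker sums of the KO arrays at 4 h (B cell 8.07, myeloid 7.32), both within the range of the WT arrays. The 14 members were picked over all arrays, this one included.

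**Figure D3:**
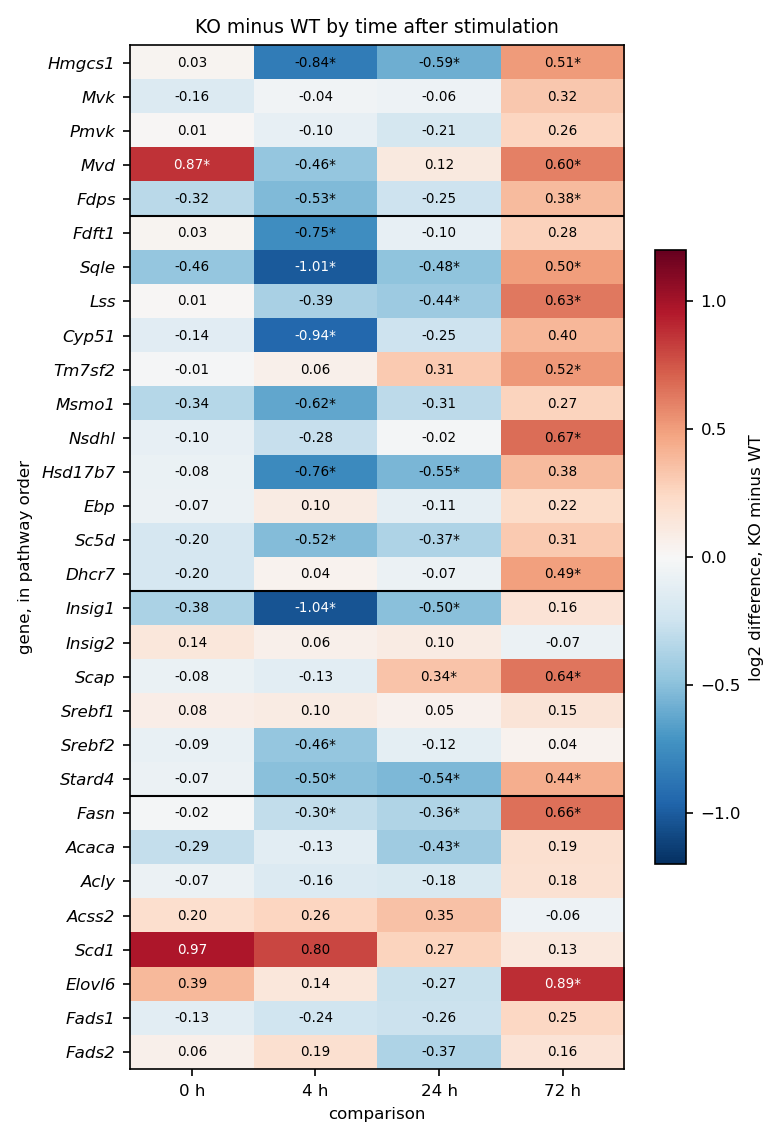
Log2 difference between KO and WT for the 30 genes (rows, in pathway order, with lines between roles) at 0, 4, 24 and 72 h (columns), each value printed in its cell. Blue is lower and red higher in KO, and stars mark adjusted p below 0.05 (limma). The 4 h column holds 13 starred blue cells and the 72 h column 12 starred red ones.

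Of the mevalonate genes, Hmgcs1, which joins acetoacetyl-CoA and acetyl-CoA to HMG-CoA, read 8.70, 8.81 and 8.40 in WT and 7.98, 7.84 and 7.55 in KO. All KO arrays were lower, by 0.84 on average (difference -0.84, SE 0.13, adjusted p = 0.000167, limma). Fdps, which makes farnesyl diphosphate, read 7.54, 7.64 and 7.13 in WT and 7.0, 6.88 and 6.83 in KO (-0.53, adjusted p = 0.00198), again without overlap. Mvk and Pmvk, the kinases between Hmgcs1 and Mvd, overlapped between genotypes, at -0.04 (95% interval -0.38 to 0.31) and -0.10 (-0.42 to 0.23).

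Of the genes that follow, Sqle differed most. It read 7.75, 8.04 and 7.65 in WT and 6.78, 6.93 and 6.70 in KO, which is 2.01-fold lower (-1.01, SE 0.13, adjusted p = 8.2e-06, limma). Cyp51 read 7.94, 8.13 and 7.75 in WT and 7.25, 7.10 and 6.66 in KO (-0.94, adjusted p = 7.04e-05). Neither gene's arrays overlapped. Hsd17b7, a ketosteroid reductase, was at -0.76, Fdft1, the squalene synthase, at -0.75, Msmo1, the sterol methyl oxidase, at -0.62, and Sc5d, the sterol desaturase, at -0.52, all without overlap. Lss, the lanosterol synthase, was at -0.39 (adjusted p = 0.0971). Tm7sf2 and Dhcr7, sterol reductases, and Ebp, the sterol isomerase, were between 0.04 and 0.10 and overlapped.

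The sterol sensors moved unequally. Insig1, whose protein holds SCAP back and whose own gene is a known SREBP target, read 8.77, 9.03 and 8.81 in WT and 7.91, 8.04 and 7.54 in KO. That is 2.06-fold lower (-1.04, SE 0.11, adjusted p = 1.01e-06, limma), the lowest value among the members. Its relative Insig2 was at 0.06 (95% interval -0.20 to 0.31). Srebf2, the SREBP of sterol genes, read 9.52, 9.52 and 9.36 in WT and 9.09, 8.97 and 8.95 in KO (-0.46, adjusted p = 7.69e-05) with no overlap, while Srebf1 was at 0.10 (-0.09 to 0.28) and overlapped. Scap was at -0.13 (-0.28 to 0.03). Stard4, which carries cholesterol between membranes, was lower by 0.50 (difference -0.50, adjusted p = 0.0144).

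Among fatty acid genes, Fasn, the fatty acid synthase, read 9.27, 9.20 and 9.24 in WT and 8.84, 8.98 and 8.97 in KO (-0.30, adjusted p = 0.0381, limma), without overlap. The other 7 were not called and lay between -0.24 and 0.80. The calls at 4 h of Mvd, Stard4 and Fasn depended on single arrays, and the other 10 were kept whichever of the 24 arrays was left out. Without KO array 3 at 4 h Mvd was at -0.35 (adjusted p = 0.154) and Stard4 at -0.40 (0.0991). Mvd also lost its call without WT array 1 or 3 or KO array 2 at 4 h (adjusted p up to 0.0889), and Stard4 without WT array 2 at 4 h (0.0836). Fasn lost its call without any 1 of the 6 arrays of 4 h (adjusted p between 0.0519 and 0.179).

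**Figure D4:**
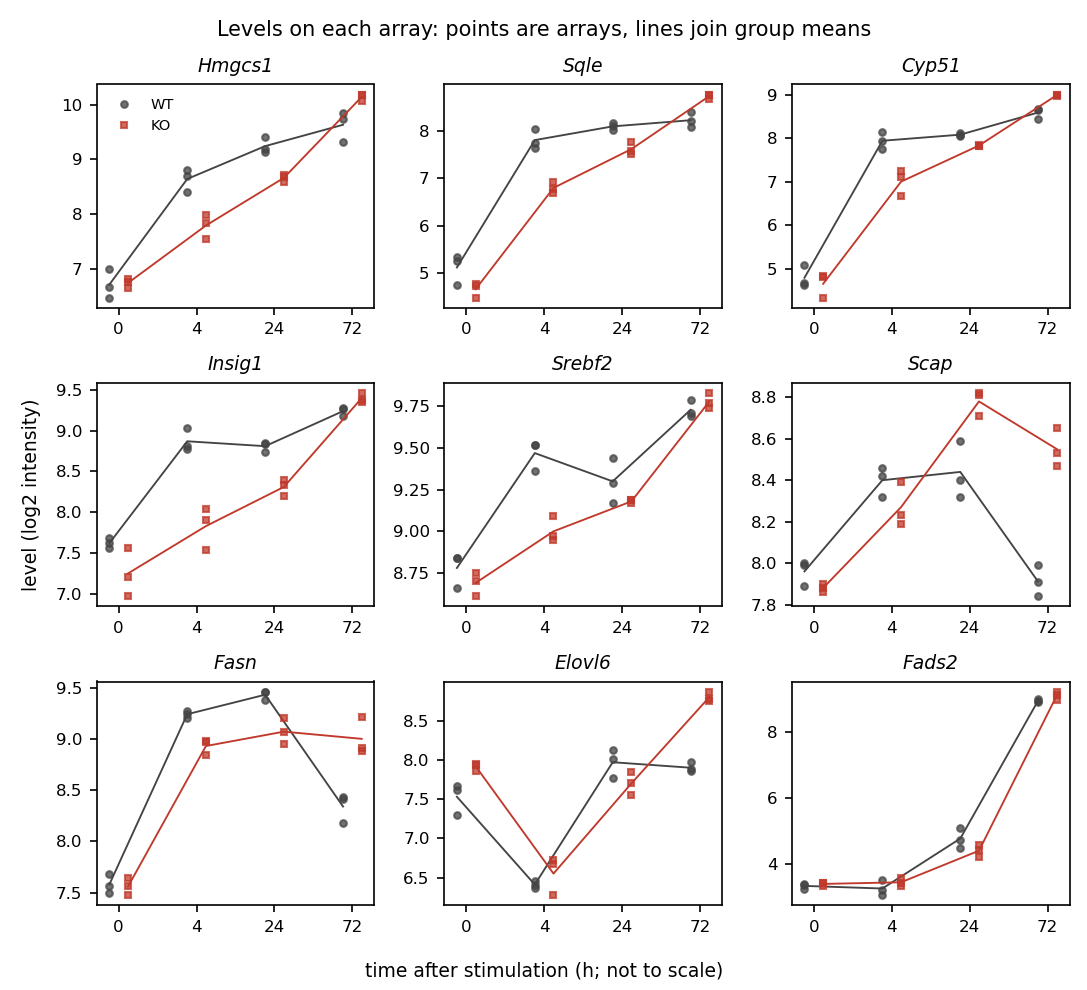
Levels (log2 intensity) of 9 of the genes, 1 panel each, against time after stimulation (not to scale); points are arrays and lines join the means of 3, WT in grey circles and KO in red squares. In Hmgcs1, Sqle, Cyp51 and Insig1 the KO points lie below the WT points at 4 h, and in Scap, Fasn and Elovl6 above them at 72 h.

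At 24 h 9 members were lower in KO (7.38% of all genes) and 1, Scap, was higher (3.9%), with a median difference of -0.23 against -0.05 for all genes. The split over all genes turned under another quantile normalization, from 865 higher and 1636 lower to 1150 and 1009, while the members counted 9 lower and 2 higher. In 14 members every KO array lay below every WT array (18.8% of all genes), and in 3 above (8.37%). The lower genes were Hmgcs1 (-0.59), Hsd17b7 (-0.55), Stard4 (-0.54), Insig1 (-0.50), Sqle (-0.48), Lss (-0.44), Acaca (-0.43), Sc5d (-0.37) and Fasn (-0.36). All of these but Lss and Acaca, the acetyl-CoA carboxylase gene, were also lower at 4 h, which makes 7 genes lower at both times. The share of all genes lower at both times was not counted. Hmgcs1 read 9.40, 9.14 and 9.19 in WT and 8.58, 8.72 and 8.68 in KO (SE 0.13, adjusted p = 0.00378, limma), without overlap. Srebf2 was at -0.12 (95% interval -0.26 to 0.02), Cyp51 at -0.25 (-0.54 to 0.03) and Fdft1 at -0.10 (-0.34 to 0.13), and none of these passed the threshold.

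Scap, the SREBP escort, read 8.59, 8.32 and 8.40 in WT and 8.71, 8.82 and 8.81 in KO at 24 h. The KO arrays were all higher, by 0.34 on average (SE 0.08, adjusted p = 0.0034, limma). Without WT array 1 at 24 h 5 members were lower, and without KO array 1 at 24 h 4. Sqle, Lss, Sc5d and Acaca lost their calls without either (adjusted p between 0.0574 and 0.088), Fasn without that KO array (0.0608), and Lss also without WT array 3 (0.0705) or KO array 2 (0.0708) of 24 h.

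At 72 h the sign was the other way. 12 of 30 members were higher in KO and 0 lower, where of all genes 2.56% were higher and 3.78% lower. The median difference was 0.31, with 0.01 for all genes, and 28 of 30 differences were above 0 (11757 of 22180 over all genes). In 24 members every KO array lay above every WT array (12.5% of all genes), and in 0 below (12%). By role 3 of 5 mevalonate genes, 5 of 11 squalene and sterol genes, 2 of 6 regulators and carriers and 2 of 8 fatty acid genes were higher.

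Elovl6, which extends saturated fatty acids, read 7.86, 7.97 and 7.88 in WT and 8.87, 8.75 and 8.77 in KO. That is 1.86-fold higher (0.89, SE 0.11, adjusted p = 2.22e-06, limma), the highest of the members at this time. Fasn read 8.41, 8.43 and 8.18 in WT and 9.21, 8.88 and 8.91 in KO (0.66, adjusted p = 4.59e-06). In both genes the groups were apart. At 24 h the WT arrays of Fasn had read 9.46, 9.46 and 9.38, all above their 72 h values.

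Scap read 7.91, 7.99 and 7.84 in WT and 8.65, 8.47 and 8.53 in KO at 72 h (0.64, adjusted p = 1.11e-06, limma). Relative to 0 h Scap was at -0.04 in WT (adjusted p = 0.702) and had risen by 0.67 in KO. Nsdhl, a sterol dehydrogenase, read 8.48, 8.61 and 8.30 in WT and 9.30, 8.99 and 9.13 in KO (0.67, adjusted p = 0.000558). Lss was higher by 0.63, Mvd by 0.60, Tm7sf2 by 0.52, Hmgcs1 by 0.51, Sqle by 0.50, Dhcr7 by 0.49, Stard4 by 0.44 and Fdps by 0.38. The arrays of these 8 genes did not overlap. Insig1 was at 0.16 (95% interval -0.08 to 0.39), Srebf2 at 0.04 (-0.10 to 0.19), Srebf1 at 0.15 (-0.03 to 0.33) and Insig2 at -0.07 (-0.33 to 0.18).

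The calls of Hmgcs1, Fdps, Sqle and Stard4 at 72 h depended on single arrays. Without WT array 3 at 72 h they were at 0.36 (adjusted p = 0.176, limma), 0.32 (0.157), 0.42 (0.106) and 0.37 (0.158), and without KO array 3 at 72 h adjusted p was 0.0595, 0.134, 0.0568 and 0.0926. Hmgcs1 and Fdps also lost their calls without KO array 2 (0.0586 and 0.0862), Sqle without WT array 1 (0.0508), and Stard4 without WT array 1 (0.137) or KO array 1 or 2 (0.0825 and 0.0617) of that time. The other 8 kept theirs whichever array was left out.

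Set side by side, 6 genes were lower in KO at 4 h and higher at 72 h (Hmgcs1, Mvd, Fdps, Sqle, Stard4 and Fasn). Lower at 4 h without a call at 72 h were 7 genes (Fdft1, Cyp51, Msmo1, Hsd17b7, Sc5d, Insig1 and Srebf2). Higher at 72 h without a call at 4 h were 6 (Lss, Tm7sf2, Nsdhl, Dhcr7, Scap and Elovl6). How many of all genes show these joint patterns was not counted. Each of the 6 genes called at both times lost its call at 4 h, at 72 h or at both without some single array. The change between the 2 times was also tested. Members and tests were chosen with earlier results of these data known, so this test is no independent support for the pattern. In 19 of 30 genes the KO minus WT difference rose from 4 to 72 h and in 0 it fell (1.37% and 3.92% of all genes), with a median change of 0.76 against 0.00. The largest were Sqle (1.51), Hmgcs1 (1.36), Cyp51 (1.34), Insig1 (1.20) and Hsd17b7 (1.14). Among the 19 are Insig1 and Srebf2, whose genotype difference passed the threshold at 4 h and not at 72 h, and Scap and Elovl6, where it passed at 72 h and not at 4 h. Of the 19 calls 17 were kept whichever array was left out. The call of Acly, the ATP citrate lyase gene, was lost without any 1 of 9 arrays (adjusted p between 0.0535 and 0.128) and that of Fads1, a fatty acid desaturase gene, without any 1 of 15 (0.0502 to 0.133).

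Against 0 h, where the comparisons share the unstimulated arrays, the genotype difference changed in fewer genes. It was lower at 4 h than at 0 h in 3 members (Hmgcs1, Mvd and Fdft1; 0.28% of all genes) and higher in 0 (0.446%). At 24 h it was lower in 3 (Hmgcs1, Mvd and Elovl6; 4.22%) and higher in 1 (Scap; 1.65%), and at 72 h higher in 8 (1.06%) and lower in 0 (2.86%). Leaving out WT array 2 of the 0 h group left 1 member lower at 4 h, and leaving out KO array 1 or WT array 3 of the 4 h group gave 5.

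In 11 members no difference was called at either 4 or 72 h (Mvk, Pmvk, Ebp, Insig2, Srebf1, Acaca, Acly, Acss2, Scd1, Fads1 and Fads2). Fads2 read 8.93, 8.95 and 9.0 in WT and 9.23, 8.99 and 9.13 in KO at 72 h, with overlap (0.16, 95% interval -0.12 to 0.44). Acss2 was at 0.26 at 4 h and 0.35 at 24 h (adjusted p = 0.282 and 0.0624, limma), with the KO arrays above the WT arrays at both times.

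Scd1 had the widest spread. At 0 h it read 4.46, 3.56 and 4.36 in WT and 5.44, 4.49 and 5.37 in KO (0.97, SE 0.31, adjusted p = 0.117, limma), and at 4 h 3.77, 3.44 and 3.73 against 4.85, 3.77 and 4.73 (0.80, adjusted p = 0.182). Every KO array lay above every WT array at both times, though at 4 h KO array 2 and WT array 1 differ by less than the printed digits show. Array 2 was the lowest of its group at 0, 4 and 24 h in both genotypes. Cd79a, which defines B cells, read 5.88, 4.87 and 6.63 in WT and 7.20, 6.30 and 7.05 in KO at 0 h. Its array 2 was lowest in 7 of 8 groups, that of Scd1 in 6, and both in 5. Whether B cells contribute to the Scd1 values was not tested.

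**Figure D5:**
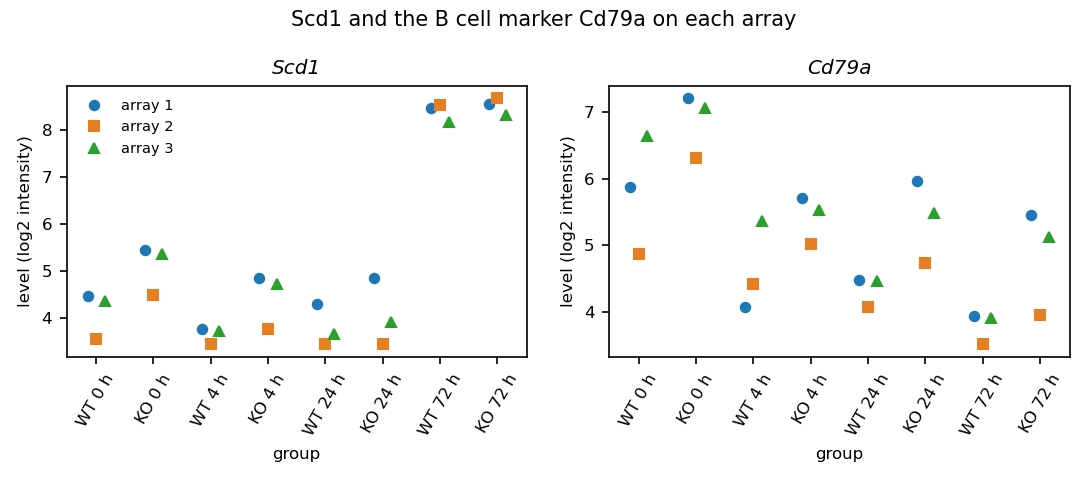
Levels (log2 intensity) of Scd1 (left) and the B cell marker Cd79a (right) on every array, by group, with the array number as symbol and colour. Array 2 (orange squares) is the lowest Scd1 value in 6 of 8 groups and the lowest Cd79a value in 7.

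Genes around the pathway moved differently. Of 15 measured genes (18 listed) for sterol uptake, transport, storage and efflux, 3 were higher and 1 lower in KO at 4 h (3.3% and 0.834% of all genes), with a median of 0.14. The 2 efflux pumps led: Abca1 read 4.89, 5.07 and 4.92 in WT and 5.92, 5.60 and 6.56 in KO (1.07, adjusted p = 0.000949, limma), and Abcg1 6.68, 6.44 and 6.48 against 7.37, 7.36 and 7.45 (0.86, adjusted p = 1.98e-05). Both were higher on every KO array. Among the KO arrays of Abca1 array 2 was the lowest, as it was for the myeloid marker Lyz2 (4.56, 3.30 and 4.23), which was itself higher in KO by 0.97 at 4 h. The part of myeloid cells in the Abca1 value was not tested. Lipa, the lysosomal acid lipase, was higher by 0.58 and Scarb1, a lipoprotein receptor, was at -0.32 (adjusted p = 0.0453). At 24 h Abcg1 (0.50), Npc1 (0.48), Npc2 (0.45) and Lipa (0.45) were higher, the last 3 being genes of cholesterol release from lysosomes, and Scarb1 (-0.41) and Gramd1b (-0.33) lower (3.9% and 7.38% of all genes were higher and lower). At 72 h 0 were higher and 3 lower (2.56% and 3.78% of all genes), namely Vldlr (-1.38), a lipoprotein receptor, Ch25h (-1.26), which makes the oxysterol 25-hydroxycholesterol, and Npc2 (-0.47). Before stimulation Abca1 was higher by 0.82 (adjusted p = 0.018). Genes of a list beyond the 3 largest changes of a comparison are named after their values were seen.

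For the counts that follow, the shares of all genes called higher in KO were 1.76%, 3.3%, 3.9% and 2.56% at the 4 times, in order, with 0.577%, 0.834%, 7.38% and 3.78% called lower. Of 9 measured genes (12 listed) that process or turn over the sterol regulators, 0 differed at 0 or 4 h and 1 at 24 h (Sec24a, 0.37). At 72 h Rnf145 (0.35) and Mbtps1 (0.25), the protease that makes the first cut in SREBP, were higher, and Erlin1 (-0.89) and Rnf139 (-0.35) lower. Lbr, which like Tm7sf2 encodes a sterol reductase, was higher by 0.44 at 72 h. Of 10 measured genes of the nonsterol isoprenoid branch (11 listed), 2 were higher at 0 h (Fntb, 0.71, and Rabggtb, 0.44), 0 differed at 4 h, Nus1 was lower at 24 h (-0.34) and Rabggtb higher at 72 h (0.58). The median of this branch was 0.03 at 4 h and 0.12 at 72 h. Of 17 further fatty acid genes (19 listed) 1 was higher and 1 lower at 4 h (Hacd3, 0.36; Hsd17b12, -0.36), and 1 and 5 at 24 h, with Lpin1 at 0.63 and Fabp5, a fatty acid carrier, at -0.83. At 72 h Lpin1 was higher (0.57) and Slc25a1, the mitochondrial citrate carrier, lower (-0.40), and at 0 h Elovl7 was lower (-0.56).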

How the data were processed

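The 24 arrays measured RNA of CD4 T cells in 8 groups of 3, grouped by the genotype and time that the sample titles give. The authors deposited log2 values, and the submitters' processing notes name RMA, oligo and R 3.1.0. RMA removes background, forces 1 distribution on all arrays and combines the probes of a set, so a shift common to all genes is lost and low signals are compressed. No filter, batch or detection call is stated, and precision is limited by how many arrays there are.

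Of 41345 probe sets, 23521 list 1 gene in the platform annotation, 1814 list several and 16010 list none there. By Entrez ID 23328 were matched to RefSeq (GRCm38.p6) for current names and gene order. The probe set with the highest mean was used for 1082 genes with several, which left 22180 genes. The highest correlation between 2 arrays was 0.992 and 0 were identical.

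limma 3.58.1 in R 4.3.3 fitted 8 group means to all 24 arrays (lmFit, eBayes with trend; 16 residual and 8.81 prior degrees of freedom), with two-sided tests, Benjamini-Hochberg adjustment over all genes and a threshold of 0.05. The script was tested on simulated data. An exact permutation test of 3 against 3 arrays cannot go below 0.10 and was not used. A marker list's summed level is the log2 of the sum of its members' linear intensities. All members are named, and of each further list the 3 called genes per comparison with the largest absolute change, with others named after their values were seen. The members, lists and tests were chosen with earlier results of these data known. Alternatives were other scalings, filters, fits, thresholds and sets of arrays. Same-numbered WT and KO arrays of the same time had correlations of 0.03 to 0.17 in their deviations from the group means. These were not all above 0.1 at any time, so the numbers were not taken to pair the arrays. Same-numbered arrays of a genotype were not compared across times. The main fit treats all 24 arrays as independent, which the labels neither state nor exclude.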

Additional observations from a re-analysis of the deposited data

Results flagged for a closer look

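The difference between KO and WT was itself tested for change between times, with the limma interaction term adjusted over all genes, and 34 such changes in these genes passed the threshold. No group holds enough arrays for a test of single outlying arrays.

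From 0 to 4 h the difference moved by -1.33 in Mvd, -0.88 in Hmgcs1 and -0.77 in Fdft1. The last 2 lost their calls without single arrays: Hmgcs1 without WT array 1 or 2 at 0 h or WT array 1 or 2 at 4 h (adjusted p between 0.0506 and 0.0768), and Fdft1 without WT arrays 2 or 3 or KO array 1 of the 0 h groups or WT array 1 of the 4 h group (0.0509 to 0.0546). Mvd kept its call whichever array was left out.

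From 0 to 24 h the difference moved by -0.75 in Mvd, -0.66 in Elovl6, -0.62 in Hmgcs1 and 0.42 in Scap. Hmgcs1 lost its call without any 1 of 16 arrays (adjusted p between 0.0525 and 0.138), and Scap without WT array 2 at 24 h (0.0584).

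From 0 to 72 h the difference rose in 8 genes, by 0.96 in Sqle, 0.77 in Nsdhl, 0.72 in Scap, 0.70 in Fdps, 0.68 in Dhcr7, 0.68 in Fasn, 0.61 in Msmo1 and 0.51 in Sc5d. Msmo1 lost its call without WT array 2 or KO array 3 of the 0 h groups or WT array 3 of the 72 h group (adjusted p between 0.0503 and 0.0648). Sc5d lost its call without WT array 1 or KO array 1 or 2 of the 0 h groups, or WT array 3 or KO array 1 of the 72 h groups (0.0568 to 0.0896).

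From 4 to 72 h it rose in 19 genes. In the mevalonate pathway the change was 1.36 in Hmgcs1, 1.06 in Mvd and 0.92 in Fdps. In the squalene and sterol steps it was 1.51 in Sqle, 1.34 in Cyp51, 1.14 in Hsd17b7, 1.03 in Fdft1, 1.02 in Lss, 0.96 in Nsdhl, 0.89 in Msmo1 and 0.83 in Sc5d. Among regulators and carriers it was 1.20 in Insig1, 0.93 in Stard4, 0.77 in Scap and 0.51 in Srebf2. Among fatty acid genes it was 0.96 in Fasn, 0.75 in Elovl6, 0.48 in Fads1 and 0.33 in Acly, the last 2 resting on single arrays as given above.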

How the results depend on the processing

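Over 225 calls of single members and the alternatives run, 0 changed sign, 7569 stayed past the threshold and 306 fell short of it. These calls pool the changes from 0 h within each genotype with the comparisons of KO and WT. Of the calls of KO against WT, 10 of 13 at 4 h were kept whichever array was left out. At 24 h 5 of 10 were kept, and at 72 h 8 of 12. For changes of the genotype difference it was 1 of 3 from 0 to 4 h and 2 of 4 from 0 to 24 h. From 0 to 72 h it was 6 of 8, and from 4 to 72 h 17 of 19. Counts of members moved as follows. With KO array 2 alone kept among the KO arrays at every time, which leaves 1 KO array a group that is assumed to vary like the others, 5 members were lower at 4 h in place of 13, 1 was lower and 0 higher at 24 h, 3 were higher at 72 h in place of 12, and the changes of the genotype difference numbered 0 lower from 0 to 4 h, 0 higher and 0 lower from 0 to 24 h, 1 higher from 0 to 72 h and 11 higher from 4 to 72 h. In KO 10 then rose by 4 h and 1 fell by 24 h. With KO array 2 alone at 0 h only, the changes from 0 h numbered 1 lower at 4 h, 0 and 0 at 24 h and 5 higher at 72 h, and 1 member fell in KO by 24 h. With arrays 1 and 2 alone, 1 was lower at 0 h, 0 were higher at 24 h and 5 at 72 h, the difference rose from 0 h in 0 members at 24 h and 4 at 72 h, 4 fell in WT at 4 h and 1 in KO at 24 h. With the fit restricted to the compared groups, 9 were lower at 4 h and 17 higher at 72 h, 1 changed from 0 to 4 h and 4 fell in WT at 4 h. Another quantile normalization gave 4 lower at 0 h, 2 higher at 24 h, 15 changes from 0 to 72 h, and 3 and 2 falls in WT at 24 and 72 h. Without low genes 2 were higher and 1 lower at 0 h, 2 higher at 24 h and 6 changed from 0 to 4 h. Robust eBayes gave 1 lower at 0 h and 5 changes from 0 to 4 h. A threshold of 0.01 gave 5 lower at 24 h, 1 change from 0 to 4 h, 1 lower and 0 higher change from 0 to 24 h, 5 changes from 0 to 72 h and 1 fall in KO at 24 h; 0.1 gave 2 higher and 2 lower at 0 h, 3 higher at 24 h and 7 changes from 0 to 4 h. With the replicate block 3 were higher at 0 h and 1 at 4 h, and 13 were lower at 4 h. With it 13 were higher at 72 h and 18 changed from 4 to 72 h. Compared with the other genotype at the same time, all 24 arrays correlated best with the array of their own number. That is a hint from the data and not the design.

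Leaving out each array in turn gave 1 to 2 higher and 0 to 1 lower at 0 h, 0 to 1 higher and 10 to 13 lower at 4 h, 1 to 2 higher and 4 to 12 lower at 24 h, and 8 to 14 higher at 72 h. For the changes of the genotype difference it gave 1 to 5 from 0 to 4 h, 0 to 1 higher and 2 to 4 lower from 0 to 24 h, 6 to 10 from 0 to 72 h and 17 to 20 from 4 to 72 h. In WT 4 to 8 fell by 4 h, and in KO 1 to 2 by 24 h.

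Over all genes, another quantile normalization moved the share of calls that were higher in KO from 75.3% to 61.0% at 0 h, 79.8% to 66.2% at 4 h, 34.6% to 53.3% at 24 h and 40.4% to 46.6% at 72 h. The count of all genes that differed was 518 at 0 h (276 with the fit restricted to the compared groups, 284 with arrays 1 and 2, 172 and 133 with KO array 2 alone at 0 h and at every time, 314 without WT array 2 and 333 without KO array 1 at 0 h), 917 at 4 h (309, 562 and 238 with that fit, arrays 1 and 2, and KO array 2 at every time, 601 without KO array 1 at 4 h), 2501 at 24 h (472 with KO array 2, 1269 without KO array 1 at 24 h) and 1405 at 72 h (707 with arrays 1 and 2, 481 with KO array 2). For the changes of the difference it was 161 from 0 to 4 h (76 with arrays 1 and 2, 79 with the fit restricted to the compared groups). From 0 to 24 h it was 1302 (779 and 937 with these, and 700 without KO array 1 at 24 h). From 0 to 72 h it was 868 (451 with arrays 1 and 2, 1000 with the restricted fit), and from 4 to 72 h 1173 (601 and 1034). For single genes outside the members, calls without single arrays are not given here.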
